A study of Mus musculus with 8 samples.

Results

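The oligodendrocyte lineage was followed in mouse hippocampus through 9 genes, the transcription factor genes Sox10, Olig1, Olig2, Nkx2-2 and Nkx6-2 and the precursor marker genes Pdgfra, Cspg4, Cspg5 and Matn4. They were chosen by name for their roles and not by a cutoff on measured values, but with earlier results of these data known. All 9 had at least 1 probe set annotated to that gene alone, out of 12393 genes measured in this way, and together they had 13 probe sets of the 22626 tested, 7 for the transcription factors and 6 for the precursor markers. Sox10 had 3 probe sets, Pdgfra and Cspg4 had 2 each and the others had 1.

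The mice were male SCID animals aged 12 weeks, a strain without mature B and T lymphocytes. All of them went through contextual fear conditioning. Of the 8 mice, 4 received FTY720 (fingolimod, a sphingosine analogue that acts on sphingosine-1-phosphate receptors once phosphorylated) by mouth in saline at 1 mg/kg on 3 days, and the other 4 mice received saline alone. Hippocampi were taken 1 hour after the consolidation test, 17 hours after the last dose, and each mouse gave 1 Affymetrix 3' array (n = 4 per group). Mice carry their label numbers below, FTY720 1, 4, 5 and 6 and vehicle 13, 14, 15 and 16.

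Oligodendrocytes arise from precursor cells that carry the PDGF receptor alpha and the proteoglycan NG2 and that persist throughout the adult brain, hippocampus included. Olig2 and Sox10 act in precursors and in mature cells alike, Olig1 and the homeodomain factors Nkx2-2 and Nkx6-2 are tied to differentiation and myelination, and Sox10 acts directly on myelin genes. Pdgfra and Cspg4 are shut off as the cells mature. The arrays measured whole tissue, so fewer cells of a type and less RNA per cell cannot be told apart.

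Promoter windows are shown for 4 genes that stand for the patterns below: Nkx6-2 and Olig2, whose means were lower with FTY720, Pdgfra, whose groups lay close together, and Matn4, whose mean was higher. They are RefSeq windows of the GRCm38.p6 build, from 250 bases before to 50 bases after the annotated start, written 5′ to 3′ in the direction of the gene. RefSeq windows were matched for 6 of the 9 genes, and of the 2 starts of Matn4 the upstream one is shown. Capitals mark E-boxes (CANNTG, the core bound by basic helix-loop-helix proteins such as the Olig factors) and the SOX-type cores ACAAAG and ACAATG, each searched on both strands, with no overlap between the marked motifs.
Nkx6-2, chr7:139582748-139583047, minus strand: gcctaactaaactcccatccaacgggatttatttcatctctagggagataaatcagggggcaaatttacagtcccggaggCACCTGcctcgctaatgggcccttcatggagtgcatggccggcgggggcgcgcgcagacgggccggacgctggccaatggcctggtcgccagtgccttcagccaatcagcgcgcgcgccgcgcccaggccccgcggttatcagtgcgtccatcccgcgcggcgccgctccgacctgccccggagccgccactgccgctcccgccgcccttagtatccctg
Olig2, chr16:91225300-91225599, plus strand: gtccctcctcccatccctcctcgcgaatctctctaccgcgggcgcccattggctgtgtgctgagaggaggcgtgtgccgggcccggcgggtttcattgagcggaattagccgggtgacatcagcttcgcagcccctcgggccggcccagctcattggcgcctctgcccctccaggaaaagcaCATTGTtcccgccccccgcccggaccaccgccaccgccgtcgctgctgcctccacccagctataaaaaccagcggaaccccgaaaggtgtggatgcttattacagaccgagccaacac
Pdgfra, chr5:75152001-75152300, plus strand: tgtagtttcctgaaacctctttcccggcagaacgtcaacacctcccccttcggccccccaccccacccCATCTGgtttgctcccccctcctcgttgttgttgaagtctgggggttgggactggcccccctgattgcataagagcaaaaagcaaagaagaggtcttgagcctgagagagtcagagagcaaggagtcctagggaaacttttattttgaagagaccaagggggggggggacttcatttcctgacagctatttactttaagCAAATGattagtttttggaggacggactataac
Matn4, chr2:164405111-164405410, minus strand: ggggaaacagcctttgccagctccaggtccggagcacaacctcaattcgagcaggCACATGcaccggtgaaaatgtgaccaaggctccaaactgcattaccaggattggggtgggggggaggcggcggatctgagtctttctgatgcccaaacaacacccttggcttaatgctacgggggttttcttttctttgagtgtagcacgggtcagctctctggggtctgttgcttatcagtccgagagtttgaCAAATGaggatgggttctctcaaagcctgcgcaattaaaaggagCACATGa

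The Nkx6-2 window held 1 E-box and that of Olig2 none, whereas the Pdgfra window held 2 and the Matn4 window 3. An E-box lay in 72.3% of all 32841 windows of this length, so its presence sets none of these genes apart. The Olig2 window was the only 1 of the 4 with a SOX-type core, a reverse-strand ACAATG, a core found in 12.6% of all windows. ACAAAG was in none of the 4 and in 18.7% of all windows. The Nkx6-2 window held 32 CpG and that of Olig2 25, against 5 in Pdgfra, 9 in Matn4 and a median of 7 over all windows. The windows not shown held 17 in Nkx2-2, 17 in Cspg4 and 19 at the downstream start of Matn4. The CpG count thus did not divide transcription factors from precursor markers. These letters are a description of sequence and were not tested against the array values.

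The array values were log2 signals per probe set. Array medians lay between 6.68 and 6.72, and the lowest correlation between any pair of arrays was 0.993. Of 11 measured marker genes of hippocampal neurons, 8 were brighter on average than the median probe set, as were 18 of 20 mature oligodendrocyte genes. Vehicle 15 stood apart in genes of neighbouring regions, with a thalamus and habenula list mean 1.07 above the mean of the 8 mice, where the other mice lay between -0.34 and 0.16. It also had a striatum list mean of 1.24, where vehicle 16 had 0.32 and the remaining mice lay between -0.32 and -0.18. Vehicle 16 was lowest in the Gapdh contrast, the 5′ minus the 3′ signal of the Gapdh control probe sets and a measure of RNA integrity, at -1.46 against -1.18 to -0.80 in the other mice. No probe set passed an adjusted p of 0.05 (percent called 0), and the lowest adjusted p of the limma fit over all probe sets was 0.483.

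With FTY720, all 7 probe sets of the transcription factors had lower means than with saline, by 0.03 to 0.24 on the log2 scale, whereas 5 of the 6 probe sets of precursor markers had higher means. The median difference was -0.10 over the transcription factor probe sets and 0.06 over those of the precursor markers, beside 0.009 over all probe sets, of which 45.6% were lower with FTY720. None of the 13 passed adjustment over all probe sets, with adjusted p between 0.690 and 0.953. Nkx6-2 and 1 probe set of Sox10 were lower and Matn4 was higher at an unadjusted p under 0.05. That is 3 of 13 probe sets, where 6.76% of all probe sets reached it, 2.73% as lower and 4.03% as higher with FTY720. The count of 3 was 1 without FTY720 5 and 1 without vehicle 14, in both cases Nkx6-2. It was also 1 with the Gapdh contrast as a covariate, then Matn4, and 1 without vehicle 15 and 16 together, then Cspg5. Whether the transcription factors and the precursor markers differed from each other was not tested.

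**Figure D1:**
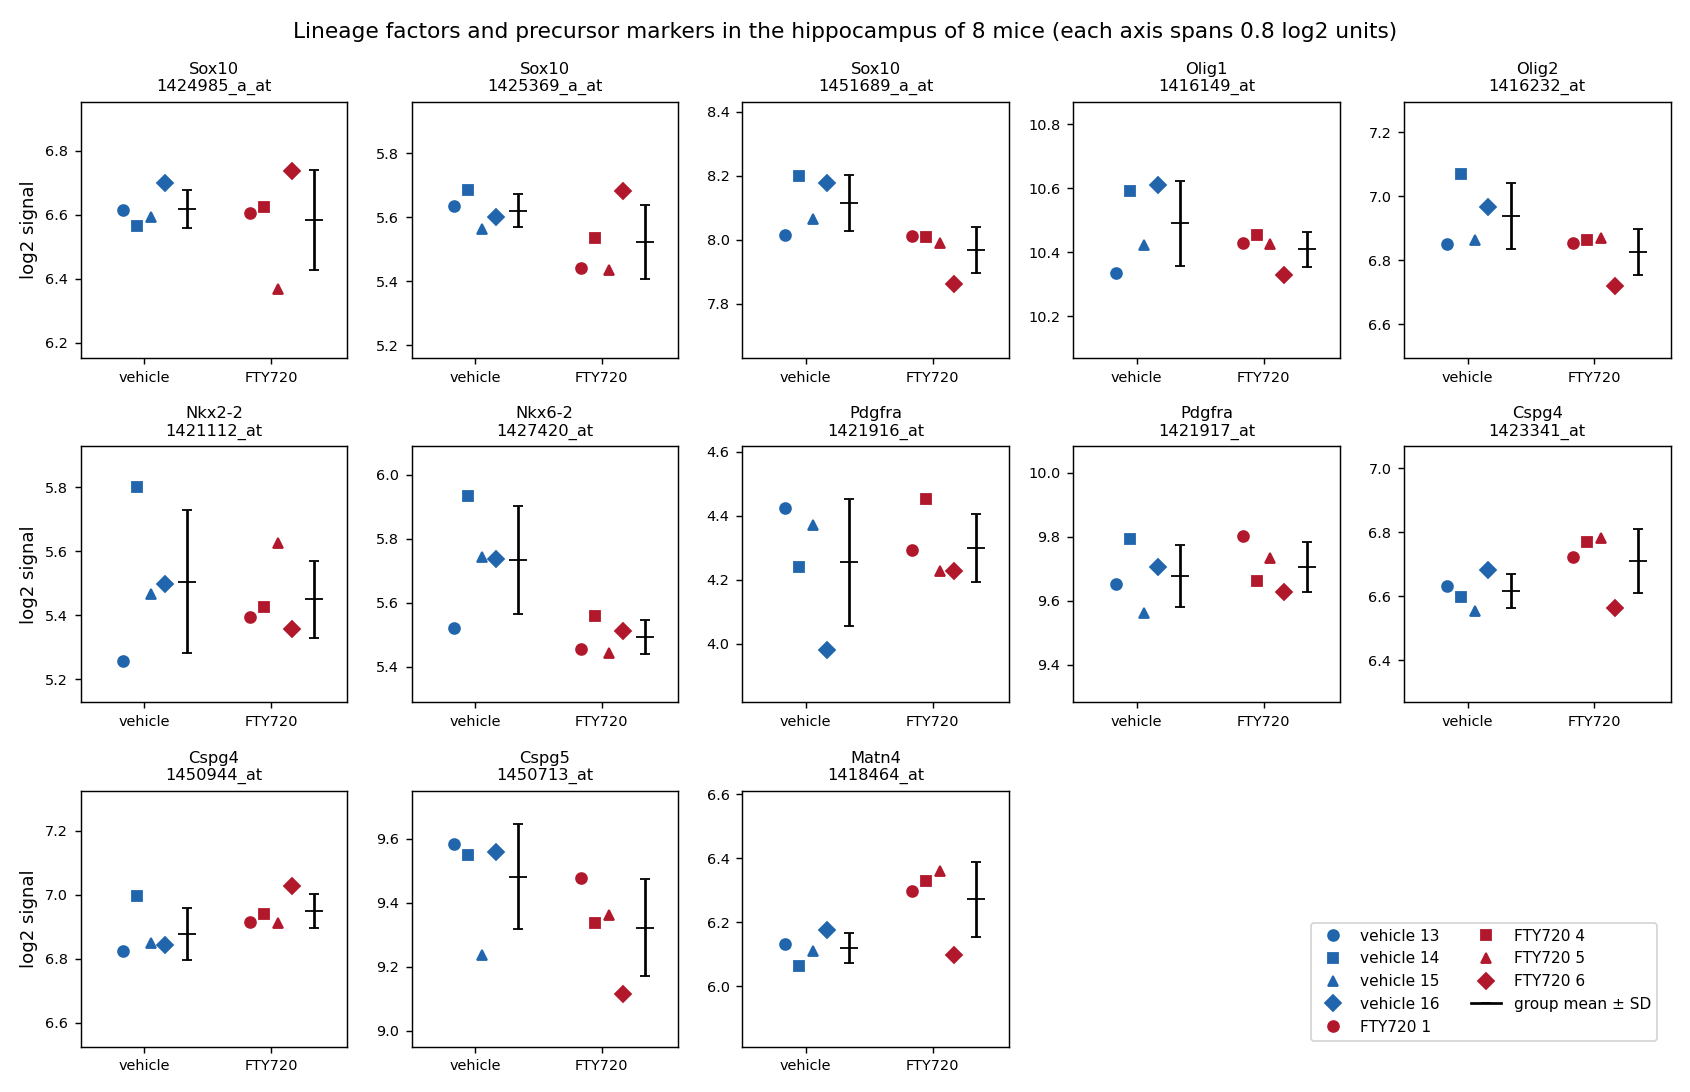
Log2 signal of the 13 probe sets in each mouse (vertical axes, all of equal span, horizontal axes the groups), with vehicle in blue, FTY720 in red, a symbol per mouse and black bars for the group mean ± SD (n = 4). Only the Sox10 probe set 1451689_a_at has groups that do not overlap, and in it, in Olig1, in Olig2 and in Cspg5 the lowest of the 8 mice is FTY720 6.

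Sox10 encodes an SRY-box factor of the lineage that drives myelin gene expression. Its brightest probe set, 1451689_a_at, read 8.01, 8.01, 7.99 and 7.86 in FTY720 1, 4, 5 and 6 and 8.02, 8.20, 8.06 and 8.18 in vehicle 13 to 16. Every FTY720 mouse lay below every vehicle mouse, by a margin as small as that between FTY720 1 and vehicle 13, and vehicle 14 and 16 were highest. Groups that do not overlap were found in 4.38% of all probe sets, 1.74% as lower and 2.65% as higher with FTY720. The means were 7.97 ± 0.07 (SD) and 8.11 ± 0.09, a difference of -0.15 (SE 0.06, limma adjusted p = 0.708), or 0.90-fold with a 95% interval of 0.82 to 0.99. Its unadjusted p stayed under 0.05 in 4 of the 8 fits that left out a mouse, and was above it without FTY720 5, FTY720 6, vehicle 14 or vehicle 16.

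The other Sox10 probe sets did not follow this order of mice. Probe set 1425369_a_at read 5.44, 5.53, 5.43 and 5.68 with FTY720 and 5.63, 5.69, 5.56 and 5.60 with saline, a difference of -0.10 (SE 0.07, adjusted p = 0.797). FTY720 6, the lowest mouse in the brightest probe set, was the highest FTY720 mouse here and lay above 3 of the 4 vehicle mice. Probe set 1424985_a_at read 6.61, 6.62, 6.37 and 6.74 against 6.61, 6.56, 6.59 and 6.70, a difference of -0.03 (SE 0.08, adjusted p = 0.953). Without FTY720 5, its lowest mouse, that difference was 0.04. With the 3 probe sets averaged, Sox10 stood at -0.09 (SE 0.05, adjusted p = 0.771).

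Olig1 and Olig2 are neighbouring genes that encode basic helix-loop-helix factors of the lineage. Olig1 read 10.43, 10.46, 10.43 and 10.33 with FTY720 and 10.34, 10.59, 10.42 and 10.61 with saline. The 2 vehicle mice that were high for Sox10, 14 and 16, were high here too, while vehicle 13 lay at the level of the lowest FTY720 mouse, so that the groups overlapped. Its difference was -0.08 (SE 0.07, adjusted p = 0.855), and the 95% interval from 0.85 to 1.06-fold includes no change. Olig2 read 6.85, 6.86, 6.87 and 6.72 with FTY720 and 6.85, 7.07, 6.86 and 6.97 with saline. Again vehicle 14 and 16 were highest and FTY720 6 lowest, with the other 5 mice between 6.85 and 6.87. The means were 6.83 ± 0.07 (SD) and 6.94 ± 0.10, a difference of -0.11 (SE 0.06, adjusted p = 0.783), or -0.07 without vehicle 14.

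Nkx6-2, a homeobox gene of mature oligodendrocytes needed for orderly contacts of myelin and axon beside the node, had the largest difference of the 13 probe sets. It read 5.46, 5.56, 5.44 and 5.51 in the FTY720 mice and 5.52, 5.93, 5.74 and 5.74 in the vehicle mice. Vehicle 14, 15 and 16 lay above every FTY720 mouse, and vehicle 13 lay among the FTY720 values. The means were 5.49 ± 0.05 (SD) and 5.73 ± 0.17, a difference of -0.24 (SE 0.08, limma adjusted p = 0.690), or 0.85-fold with a 95% interval of 0.75 to 0.96. It stayed between -0.31 without vehicle 13 and -0.17 without vehicle 14, with an unadjusted p under 0.05 in all 8 fits that left out 1 mouse, but not without vehicle 15 and 16 together or with the Gapdh contrast as a covariate. Its mean level of 5.61 was dim, at the 34.5th percentile of all probe sets, where some summaries of array signal understate differences. Whether that holds for these values is not known.

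Nkx2-2 encodes the homeodomain factor that represses Pdgfra as precursors begin to differentiate. It read 5.39, 5.43, 5.63 and 5.36 with FTY720 and 5.26, 5.80, 5.47 and 5.50 with saline. Vehicle mice held both the lowest and the highest value, and the difference was -0.05 (SE 0.11, adjusted p = 0.943) with an interval of 0.82 to 1.14-fold. Without vehicle 14, the highest mouse, it was 0.04. The probe set was also dim, at the 32.5th percentile of all probe sets.

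**Figure D2:**
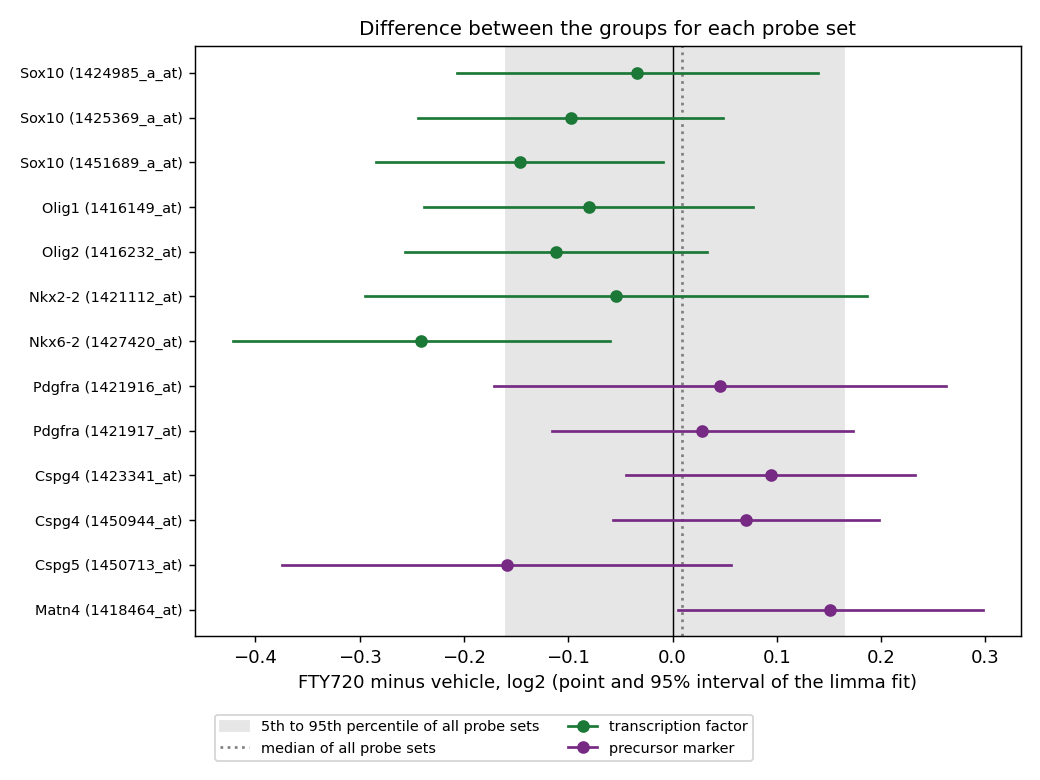
FTY720 minus vehicle on the log2 scale (horizontal axis) for each probe set (vertical axis), with points for the difference, lines for the 95% interval of the limma fit, green for transcription factors and purple for precursor markers. The 7 transcription factor points lie left of 0 and 5 of the 6 precursor marker points right of it. The grey band marks the 5th to 95th percentile of all probe sets, -0.16 to 0.16, and the Nkx6-2 point lies outside it.

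Pdgfra, the receptor for the mitogen PDGF-A and the classical surface marker of oligodendrocyte precursors, showed no difference beyond its error. Its bright probe set 1421917_at read 9.80, 9.66, 9.73 and 9.63 with FTY720 and 9.65, 9.79, 9.56 and 9.71 with saline. The groups overlapped across almost their whole range, and vehicle 15 was lowest. The difference was 0.03 (SE 0.06, adjusted p = 0.952), and the 95% interval reached from 0.92 to 1.13-fold. Its sign turned without FTY720 1 (-0.004) or vehicle 15 (-0.01). The second probe set, 1421916_at, was dim, at the 15.7th percentile of all probe sets. It read 4.29, 4.45, 4.23 and 4.23 against 4.42, 4.24, 4.37 and 3.98, a difference of 0.05 (SE 0.10, adjusted p = 0.947). Vehicle 16, the lowest mouse in the Gapdh contrast, was lowest here, and without it the difference was -0.04.

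Cspg4 encodes the NG2 proteoglycan, which precursors share with pericytes. Probe set 1423341_at read 6.72, 6.77, 6.78 and 6.56 with FTY720 and 6.63, 6.60, 6.55 and 6.68 with saline, a difference of 0.09 (SE 0.06, adjusted p = 0.794). FTY720 1, 4 and 5 lay above every vehicle mouse, and FTY720 6 lay below 3 of the 4. Probe set 1450944_at read 6.91, 6.94, 6.91 and 7.03 against 6.82, 7.00, 6.85 and 6.84, a difference of 0.07 (SE 0.06, adjusted p = 0.841). Here FTY720 6 was highest, so the 2 probe sets ordered the mice differently although both had higher means with FTY720. Averaged, they stood at 0.08 (SE 0.04, adjusted p = 0.768).

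Matn4, which encodes the matrix protein matrilin-4 and marks precursors in brain, was the precursor marker with the smallest p. It read 6.30, 6.33, 6.36 and 6.10 with FTY720 and 6.13, 6.06, 6.11 and 6.18 with saline. FTY720 1, 4 and 5 lay above every vehicle mouse, while FTY720 6 lay within the vehicle range. The means were 6.27 ± 0.12 (SD) and 6.12 ± 0.05, a difference of 0.15 (SE 0.07, limma adjusted p = 0.717), or 1.11-fold with a 95% interval of 1.004 to 1.23. Without FTY720 6 it was 0.21, and it was lowest without FTY720 5, at 0.12. Its unadjusted p stayed under 0.05 in 2 of the 8 fits that left out a mouse, those without FTY720 6 and without vehicle 16.

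Cspg5, the transmembrane proteoglycan neuroglycan C, is expressed by precursors but also by neurons and astrocytes, and it was the precursor marker with a lower mean. It read 9.48, 9.34, 9.36 and 9.12 with FTY720 and 9.58, 9.55, 9.24 and 9.56 with saline. Vehicle 13, 14 and 16 lay above every FTY720 mouse, and vehicle 15 lay below 3 of the 4. The difference was -0.16 (SE 0.10, adjusted p = 0.789), or 0.90-fold with a 95% interval of 0.77 to 1.04. Leaving out vehicle 15 gave -0.24 and leaving out FTY720 6 gave -0.09, and adding the Gapdh contrast as a covariate gave -0.03.

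**Figure D3:**
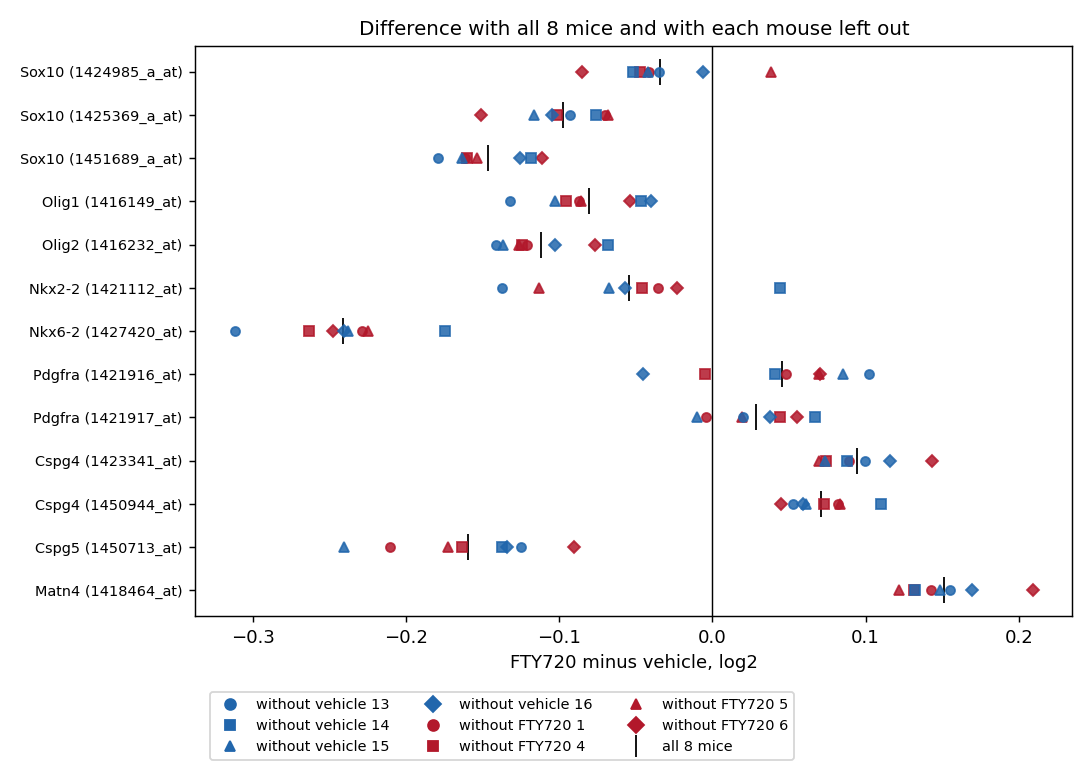
FTY720 minus vehicle on the log2 scale (horizontal axis) for each probe set (vertical axis) with all 8 mice (black bar) and with each mouse left out in turn (coloured symbols, blue for vehicle and red for FTY720). Nkx6-2 stays below -0.17 and Matn4 above 0.12, while both Pdgfra probe sets, Nkx2-2 and the Sox10 probe set 1424985_a_at have symbols on both sides of 0.

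Taking the brightest probe set of each gene, the mean deviation of the 5 transcription factors from the 8-mouse mean was -0.06, -0.03, -0.02 and -0.14 in FTY720 1, 4, 5 and 6. In vehicle 13 to 16 it was -0.10, 0.23, 0.02 and 0.10. The spread was thus wider among the vehicle mice, with vehicle 13 below 3 of the FTY720 mice and vehicle 14 above all others. For the 4 precursor markers the means were 0.07, 0.02, 0.04 and -0.08 with FTY720 and -0.003, 0.05, -0.11 and 0.02 with saline. FTY720 6 was low in both sets and vehicle 14 was highest in the first and next to highest in the second, while vehicle 15 was lowest for the precursor markers.

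Mature oligodendrocyte genes were high and low in much the same mice as the transcription factors. All 20 measured of 24 listed had lower means with FTY720, 16 reaching an unadjusted p below 0.05 and none passing adjustment, with a median difference of -0.32. With 1 probe set per gene, 6.26% of all 12393 genes reached that p, 2.7% as lower and 3.57% as higher. Their list mean per mouse lay between -0.27 and -0.08 with FTY720 and between -0.05 and 0.31 with saline, highest in vehicle 16 and 14 and lowest in FTY720 6. The 4 of smallest p were Ugt8a (-0.52), which makes galactosylceramide, the myelin glycoprotein gene Mog (-0.54), Ppp1r14a (-0.45) and the acetylaspartate-cleaving enzyme gene Aspa (-0.44). This list was known to be lower when the transcription factors were chosen and is no separate support for them. The part of oligodendrocyte content or of RNA integrity in the transcription factor values was not tested. The Gapdh contrast was -1.08, -0.80, -1.05 and -0.85 with FTY720 and -1.09, -1.18, -1.07 and -1.46 with saline. With it as a covariate the brightest probe set of Sox10 stood at -0.08, Olig2 at -0.05, Olig1 at 0.02, Nkx2-2 at 0.02 and Nkx6-2 at -0.25. The other Sox10 probe sets moved further from 0 with that covariate, 1425369_a_at from -0.10 to -0.16 and 1424985_a_at from -0.03 to -0.06. The mature oligodendrocyte list then had 19 of 20 genes lower, 7 of them at that p, and a median of -0.19.

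**Figure D4:**
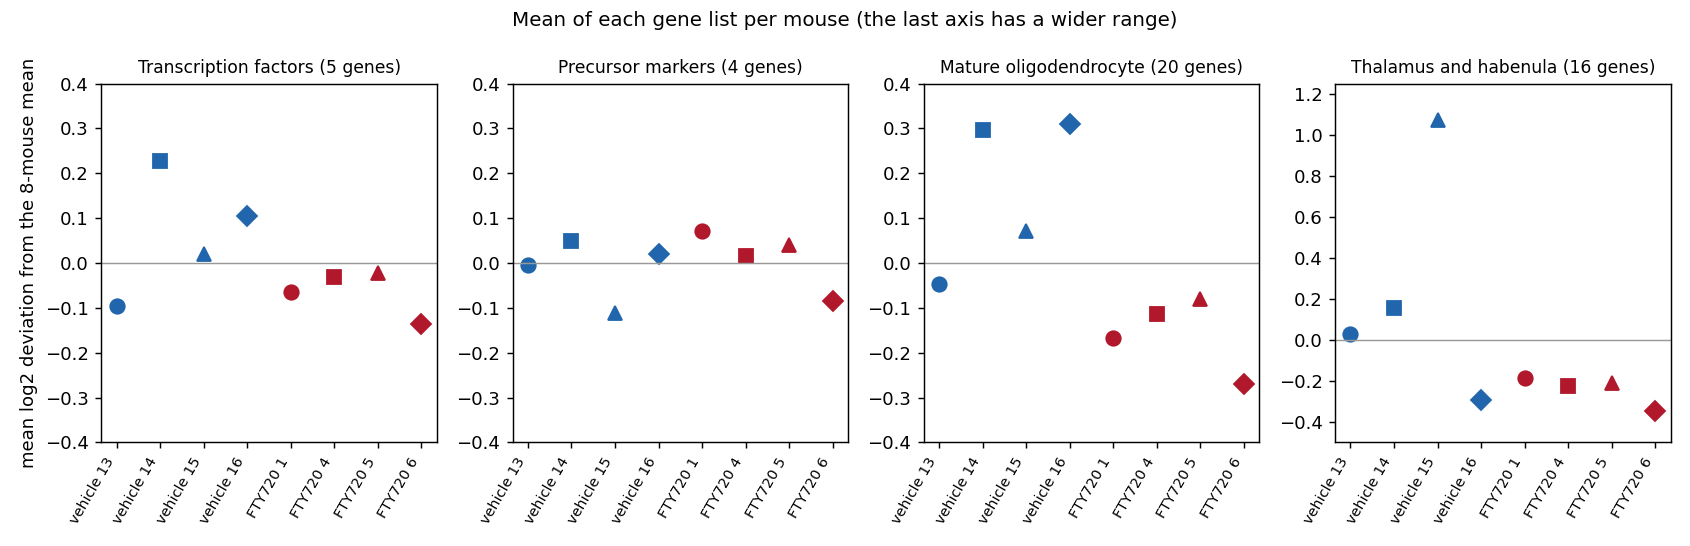
Mean log2 deviation from the 8-mouse mean (vertical axes, the last with a wider range) of 4 gene lists in each mouse (horizontal axes, vehicle in blue and FTY720 in red), with the brightest probe set of each gene. Vehicle 14 and 16 are the highest mice for transcription factors and mature oligodendrocyte genes, and vehicle 15 stands apart at 1.07 for thalamus and habenula genes.

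Genes that resembled single members over the 8 arrays were looked for among 7065 genes above the median level, by Pearson's r of the brightest probe sets. Being the highest of so many, these values are a description and carry no p. Most like Sox10 were Cnp (r = 0.994, Spearman's rho = 1), the 2′,3′-cyclic nucleotide phosphodiesterase of myelin, then Pdlim2 (0.981), Use1 (0.979) and Oxsr1 (0.975). Cnp had a difference of -0.33 (SE 0.10) and Pdlim2 of -0.32 (SE 0.10), beside -0.15 for Sox10. Most like Pdgfra were Rabgap1 (r = 0.974), Dtnb (0.970), Scamp2 (0.946) and the complement gene C1qa (0.940). Their differences lay between 0.01 and 0.05. For the bright Pdgfra probe set, r after subtracting group means was 0.80 with Olig2 and 0.74 with Sox10 probe set 1451689_a_at. It was 0.61 with Olig1, 0.55 with Nkx2-2, 0.27 with Nkx6-2, and -0.30 and -0.22 with Sox10 probe sets 1424985_a_at and 1425369_a_at.

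Other regulators of the lineage did not share a direction. Of 41 listed, 36 were measured, 19 lower and 17 higher, with a median of -0.03. With 1 probe set per gene, 2.7% of all 12393 genes were lower and 3.57% higher at an unadjusted p under 0.05. Of these regulators, 5 were lower and 1 higher at that p, and none passed adjustment. Those counts were 1 lower and 1 higher without FTY720 6, 2 and 1 without vehicle 13, 2 and 0 without FTY720 4, and 3 and 0 without FTY720 1 or without vehicle 15. With the Gapdh contrast as a covariate they were 2 and 2. The 4 of smallest p were Tcf7l2 at -1.44 (SE 0.50), the progenitor gene Sox4 at -0.19 (SE 0.07), the stem cell transcription factor gene Sox2 at -0.25 (SE 0.11) and Prrx1 at -0.15 (SE 0.06). Tcf7l2 is a Wnt effector of differentiating oligodendrocytes and also a thalamic gene, and vehicle 15, the mouse with the high thalamic list, is part of its vehicle mean. The SD of Tcf7l2 was 1.28 among the vehicle mice and 0.16 among the FTY720 mice. Among growth factors, receptors and other signals to the lineage, 41 of 43 listed were measured, 17 lower and 24 higher, with a median of 0.01. At the same p, 4 were lower and 3 higher, but 1 and 0 with the Gapdh covariate and 2 and 0 without vehicle 15 and 16 together. The leading ones were the FGF receptor gene Fgfr2 at -0.28 (SE 0.06), S1pr5, the sphingosine-1-phosphate receptor typical of oligodendrocytes, at -0.41 (SE 0.13), the neuregulin receptor gene Erbb3 at -0.31 (SE 0.10) and the Notch ligand gene Dll3 at 0.17 (SE 0.06).

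Further precursor and committed precursor genes stood on either side of 0, as the 4 precursor markers did. Of 30 listed, 17 were measured, 8 lower and 9 higher, with a median of 0.001. The 4 of smallest p were the calcium channel subunit gene Cacng4 at -0.30 (SE 0.11), the tetraspanin gene Cd9 at -0.24 (SE 0.09), the versican gene Vcan at -0.08 (SE 0.07) and Rlbp1 at -0.10 (SE 0.09). Cacng4 and Cd9 were the 2 at an unadjusted p under 0.05, where 2.7% of all 12393 genes were lower and 3.57% higher. The count of 2 was 0 without FTY720 6, 1 without vehicle 14 and 1 with the Gapdh covariate. Proliferation genes, of which 12 of 13 were measured and only 1 lay above the median level, had 8 lower and 4 higher and a median of -0.01. Among them the cyclin-dependent kinase gene Cdk1 stood at -0.30 (SE 0.10), Top2a at -0.22 (SE 0.10), Mki67 at 0.08 (SE 0.06) and Aurkb at -0.07 (SE 0.08).

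Among lists of other cell types, those of pericytes and fibroblasts, which share precursor markers, depended on single mice. Pericyte and smooth muscle genes, which include cells with NG2, had 11 of 12 measured, 4 lower and 7 higher, with a median of 0.02. Their list means ran from -0.03 to 0.04 with FTY720 and from -0.19 in vehicle 15 to 0.14 in vehicle 16 with saline. The 4 of smallest p were Kcnj8 (-0.17), Rgs5 (0.12), Higd1b (0.09) and Myh11 (-0.14). Fibroblast and meningeal genes, a source of Pdgfra RNA outside the lineage, had all 13 measured, 6 lower and 7 higher, with a median of 0.03. Their list means ran from -0.007 to 0.14 with FTY720 and from -0.22 in vehicle 15 to 0.10 with saline. Dcn, the proteoglycan decorin, led them at 0.90 (SE 0.18), followed by Col6a2 (0.16), Col1a1 (0.09) and Col3a1 (-0.16). Without vehicle 15 the medians were -0.03 for the pericyte and -0.06 for the fibroblast list, and with the Gapdh covariate they were 0.15 and 0.10. Their signs also turned without FTY720 1, at -0.007 and -0.006, and that of the fibroblast list without FTY720 4, at -0.01. Vehicle 15 was thus lowest for these lists and for the bright Pdgfra probe set alike, and the part of these cell types in the Pdgfra values was not tested. Being lowest in vehicle 15 was not particular to them. That mouse was also lowest for microglia (-0.14), endothelium (-0.11) and hippocampal neuron genes (-0.24, with vehicle 16 at -0.20). Astrocyte genes, with 15 of 16 measured, had 10 lower and 5 higher and a median of -0.02. The water channel gene Aqp4 stood at -0.23 (SE 0.07), Fgfr3 at 0.14 (SE 0.06), Gjb6 at 0.19 (SE 0.08) and the glutamate transporter gene Slc1a2 at 0.19 (SE 0.09). Their list means ran from -0.06 to 0.07 with FTY720 and from -0.07 to 0.04 with saline, within which vehicle 15 was again lowest.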

How the data were processed

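Hippocampal RNA of 8 SCID mice was measured on 1 Affymetrix 3' array per mouse, labelled with biotin from 100 ng of input RNA, per the labels. The authors deposited 1 log2 value per probe set and array. The scale was inferred from the values, which run from 2.31 to 14.5. The submitters' processing notes list Expression Console, MAS5 and RMA, and the role of each, the genome build and the scan dates are not given in the sources used here. Depending on the method, background correction and summarising can understate differences of dim probe sets, and the number of mice limits the precision.

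Of 22690 probe sets, 64 were controls and left out of the fit. Names came from the platform annotation, in which 20393 probe sets had 1 gene symbol, 691 several and 1606 none, and 20364 were found by Entrez ID in the RefSeq gene table. Every probe set of the 9 genes was used. For other genes the probe set of highest mean was taken, which gave 12393 genes.

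The groups were compared in R 4.3.3 by limma 3.58.1 (lmFit, then eBayes, on the values as deposited, all 8 arrays, no covariate, no filter, no pseudocount) with Benjamini-Hochberg adjustment over all 22626 probe sets. Limma p values, adjusted p values, SE and 95% intervals come from that fit, SD values are between mice, and a list is described by counts and its median. The fit was tested on simulated data. The groups share no replicate number and were not paired. From each list the 4 genes of smallest p are named. Alternatives covered normalization, probe set choice, dim probe sets, variance models, array weights, RNA integrity and leaving out mice. The members and lists were chosen with earlier results of these data known. Lists of microglia (12 measured, median -0.0006), endothelium (10, -0.05), general neuron (12, -0.0008), hippocampal neuron (11, 0.08), thalamus and habenula (16, -0.48) and striatum genes (9, -0.41) were also measured. Without vehicle 15 the medians of the last 3 were -0.02, -0.13 and -0.15, without vehicle 15 and 16 together that of striatum was 0.05, and with the Gapdh covariate the hippocampal neuron and thalamus medians were -0.04 and -0.84.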

Additional observations from a re-analysis of the deposited data

Results flagged for a closer look

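In 4 of 26 groups of 4 mice, taken over the 13 probe sets, a mouse lay far from the other 3, with a gap of more than 0.829 of the group's range. Chance flags about 1 in 20 such groups, or 1.3 of 26. FTY720 6 was the distant mouse for Sox10 probe set 1451689_a_at, at 7.86 with the next at 7.99. FTY720 6 was also the distant mouse for Olig2, at 6.72 with the next at 6.85. Vehicle 14 was distant for Cspg4 probe set 1450944_at, at 7.00 with the next at 6.85. Vehicle 15 was distant for Cspg5, at 9.24 with the next at 9.55. These mice were kept in all values above unless a sentence says otherwise.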

How the results depend on the processing

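Over 19 alternatives no probe set on the array passed an adjusted p of 0.05, and none of the 13 did. The median of the transcription factor probe sets kept its sign in all 19, from -0.14 to -0.06, and that of the precursor markers stayed above 0, from 0.01 to 0.08. Some of the 19 could not move these medians. The trended and robust variance models leave differences as they are, and leaving out _x_at and _s_at probe sets removes none of the 13. Keeping only probe sets above the median level, or 1 per gene, takes medians over some of the same differences. Leaving out each mouse in turn, these medians ran from -0.14 to -0.07 and from 0.05 to 0.08, and the count of members at an unadjusted p under 0.05 ran from 1 to 4 (main value 3). That count was 1 with only probe sets above the median level, where 6 of the 13 remain, 1 with the Gapdh covariate and 1 without vehicle 15 and 16 together, and the cause was not tested for the last 2. Over all probe sets the count of 1529 was 969 above the median level, 823 with 1 probe set per gene and 835 with probe sets averaged, each with fewer features tested. It was 948 with the Gapdh covariate, which was itself uneven between the groups, and 1266 to 1838 with a mouse left out.

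Differences whose sign turned were among those closest to 0. With the Gapdh covariate Olig1 stood at 0.017, Nkx2-2 at 0.023 and Pdgfra probe set 1421916_at at -0.16. Without vehicle 15 and 16 together the Pdgfra probe sets 1421916_at and 1421917_at stood at -0.031 and -0.016. Leaving out each mouse in turn, Sox10 probe set 1424985_a_at ran from -0.085 to 0.038 (without FTY720 5), Nkx2-2 from -0.14 to 0.044 (without vehicle 14), 1421916_at from -0.045 (without vehicle 16) to 0.10 and 1421917_at from -0.0100 (without vehicle 15) to 0.067. The signs also turned without FTY720 4 for 1421916_at, at -0.0049, and without FTY720 1 for 1421917_at, at -0.0038. The other 8 probe sets kept their sign in every alternative that could be run on them. No paired analysis was possible because the groups share no replicate number.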
